A study of Mus musculus with 26 samples.

Results

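RNA recovered with hnRNPK from the cytoplasm of mouse liver was compared between leptin-deficient and wild-type mice. The comparison was made with the 4 libraries whose titles mark them as cytoplasmic immunoprecipitation (IP) of ob/ob (2 libraries) and of wild type (2 libraries), out of 26 libraries in the series. The ob/ob mice were of strain B6.V-Lepob/J, which makes no working leptin in any tissue, and the wild-type mice were C57BL/6J. Both ate normal diet, and neither carries a transgene or drug treatment in the labels. Livers of C57BL/6J mice on high-fat diet gave 2 more cytoplasmic IP libraries, used here for the estimate of spread and for levels set side by side. The ages and sexes of the mice are not given in the sources used here, nor is it stated that replicates came from separate animals or that the fractions of one number came from the same liver, and each p-value below is therefore set against differences among these libraries alone, which could be technical.

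The nuclear and cytoplasmic protein hnRNPK is a member of the heterogeneous nuclear ribonucleoproteins and binds C-rich stretches of RNA through KH domains. It moves between nucleus and cytoplasm and is known for roles in splicing, RNA stability and translation. Leptin is a hormone of fat cells that limits food intake, and mice without it become obese and store fat in the liver.

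Expected counts, the reads that the RSEM program assigns to each transcript, were summed per numbered gene cluster, a group of transcripts taken as 1 gene. The extract was passed over control IgG beads and then over anti-hnRNPK beads, per the labels, and total RNA is not the input of that extract. The 2 libraries called control IgG here are so only by their titles, since another label field lists them as bound to hnRNPK like the IP libraries, and every IgG value below carries that doubt. No file or reference table used here pairs these identifiers with gene symbols, so the hepatocyte and other cell type markers, the lists of metabolic genes, hnRNPK itself and any promoter sequence could not be looked up. A cluster is named by its most counted transcript, and at most 2 that rose and 2 that fell are named. Levels are CPM, counts scaled to a common library size, with composition scaling by TMM within each RNA fraction. A level in the IP is therefore a share of that library, compared without division by total RNA, and not an amount of bound RNA. The ob/ob IP libraries held 12068891 and 11108234 counts and the wild-type IP libraries 10023591 and 9440390, so the ob/ob libraries were the deeper ones. Total RNA libraries of these mice held 25597307 to 41157450. Across clusters, which are not independent replicates, log2 CPM had a Pearson's r of 0.976 between the ob/ob libraries, 0.954 between the wild-type libraries and 0.927 to 0.939 across the groups. The most counted cluster, uc012ath.2, took 12.2% and 15.8% of the counts in ob/ob against 24.3% and 12.5% in wild type, and these shares overlapped (edgeR adjusted p = 0.701).

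The first question was which RNAs differed inside the IP. Of 11901 clusters tested, 665 passed the threshold of 0.05 on the adjusted p (5.59%), 336 higher (2.82%) and 329 lower (2.76%) in ob/ob. The tested difference was that of the ob/ob and wild-type means, with edgeR's quasi-likelihood test and Benjamini-Hochberg adjustment over all clusters. The median log2 fold change was 1.19 among the higher clusters and -1.20 among the lower ones, with a median standard error of 0.23 over all that passed. It was -0.03 over all clusters tested. A fitted change of at least 2-fold was reached by 218 of the higher and 226 of the lower clusters. In each of the 665 clusters the libraries of the groups did not overlap, which was also so for 6206 of the 11901 tested (52.1%). In whole liver, fewer cells of a type and less RNA per cell cannot be told apart in such differences. The higher clusters together took 3.51% and 3.89% of the counts in the ob/ob libraries and 1.23% and 1.30% in wild type, and the lower clusters 1.00% and 0.906% against 4.00% and 5.36%. Both sets were picked for their difference in these same libraries, so the contrast in shares follows from the choice. Such shares rest most on the most abundant clusters of a set, and how few clusters make them up was not taken.

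The number of calls rested on the libraries in the fit. The sign of each of the 665 was the same in the 16 alternatives run, which their groups without overlap largely fix, so it is no sign of stability. Without ob/ob IP replicate 1 or 2 the count was 174 and 60, and without wild-type IP replicate 1 or 2 it was 1200 and 952. Without either high-fat diet library it was 216 or 218. Scaled by library size only, 672 clusters passed, of which 437 were higher and 235 lower (65.0% higher, against 50.5% with composition scaling). The median over all clusters then moved from -0.03 to 0.12, and 423 of the 672 were among the 665.

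**Figure D1:**
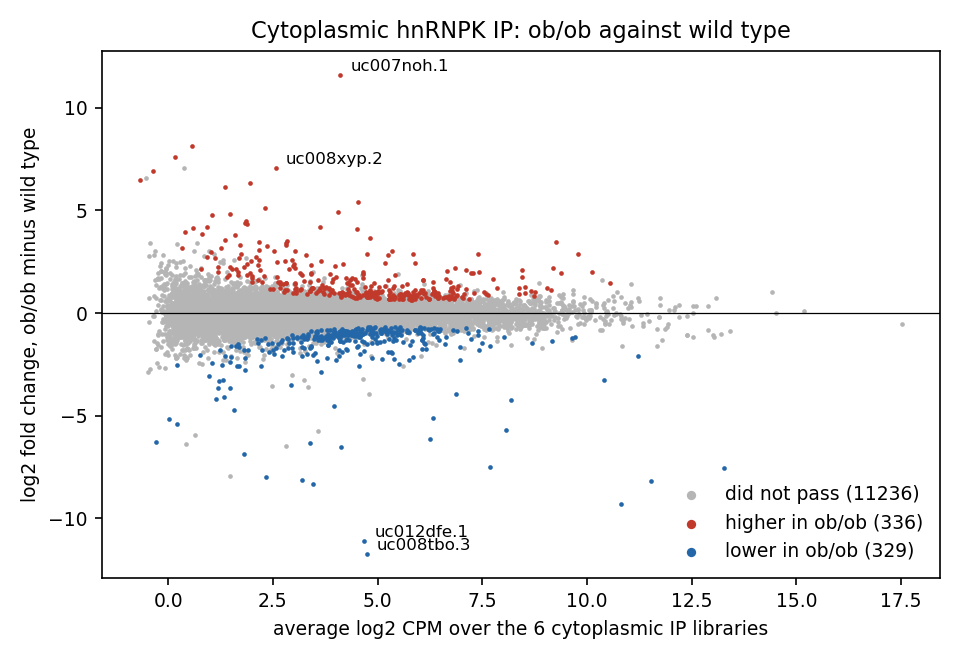
Log2 fold change of ob/ob over wild type in the cytoplasmic IP (y axis) against the average log2 CPM of the 6 cytoplasmic IP libraries (x axis), 1 point per cluster, with the 336 higher clusters in red, the 329 lower in blue and the others in grey. The 4 named clusters lie at the edges, and the fitted values of the 3 with 0 counts in a group depend on the prior count.

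Among the higher clusters, uc008xyp.2 (1260 nt, 1 isoform) had 15.8 and 15.8 CPM in the ob/ob IP libraries against 0.202 and 0 CPM in wild type. These are 218 and 180 counts against 2 and 0, so both ob/ob libraries lay far above both wild-type ones. The ratio of summed counts was 150 (exact 95% binomial interval 41.3 to 1250, for counting error only), and the log2 fold change was 7.08 ± 0.53 (SE, edgeR adjusted p = 0.000475). The fold rests on those few wild-type counts: the log2 value was 6.21 without wild-type IP replicate 2, and 10.35 without replicate 1, where wild type is at 0 and the fitted value is no bound. The high-fat diet IP libraries had 0.306 and 0.263 CPM, near wild type. In total RNA the cluster moved the same way, from 0.734 and 0.270 CPM in wild type to 31.8 and 53.2 in ob/ob. The ratio of summed counts there was 86.9 (69.1 to 111, again for counting error only). The nuclear IP had 43.0 and 43.2 CPM in ob/ob against 0.726 and 0.536. The cytoplasmic IgG library, from mixed mice, had 3 counts, or 8.86 CPM by library size (exact 95% binomial interval 1.83 to 25.9), a range that holds both ob/ob IP levels.

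The other higher cluster, uc007noh.1 (3286 nt, 1 isoform), passed inside the IP and did not pass in total RNA. The ob/ob IP libraries had 35.3 and 41.0 CPM, the wild-type IP libraries 0 and 0, and the high-fat diet IP libraries 10.3 and 14.1. The 955 counts of ob/ob against 0 make it at least 241-fold higher, against a floor of 3 counts over the group (edgeR adjusted p = 0.00019). In total RNA the levels were 67.9 and 72.5 CPM in ob/ob and 66.6 and 57.1 in wild type, a log2 fold change of 0.18 ± 0.10 that did not pass (edgeR adjusted p = 0.304). It had 0 counts in all nuclear IP libraries and in both control IgG libraries. In cytoplasmic IgG a count of 0 allows up to 10.9 CPM (exact 95% binomial interval), above the 10.3 CPM of a high-fat diet IP library. These are estimates by RSEM, and whether its division of reads among overlapping transcripts set them to 0 was not tested.

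Among the lower clusters, uc008tbo.3 (881 nt, 1 isoform) had 50.4 and 32.1 CPM in the wild-type IP and 0 in both ob/ob IP libraries. The high-fat diet IP libraries had 34.5 and 43.1 CPM, within the wild-type range. With 793 counts against 0 it was at least 350-fold lower in ob/ob (edgeR adjusted p = 0.000276). Total RNA went the same way, from 5972 and 6622 CPM in wild type to 16.9 and 38.7 in ob/ob, 218-fold lower (211 to 224). High-fat diet total RNA had 3153 and 4741 CPM, below both wild-type units. The nuclear IP had 21.1 and 3.97 CPM in wild type and 0 in both ob/ob libraries, at least 66.1-fold lower. The cytoplasmic IgG library, which came from mixed mice and held 338469 counts, had 662 CPM by library size, more than any IP library.

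The second lower cluster, uc012dfe.1 (796 nt, 3 isoforms), had 25.6 and 28.3 CPM in the wild-type IP and 0 in both ob/ob IP libraries, at least 226-fold lower (513 counts against 0, edgeR adjusted p = 0.00019). The high-fat diet IP libraries had 57.5 and 42.2 CPM, above both wild-type libraries. In total RNA it had 22.9 and 80.1 CPM in wild type and 0.175 and 0.195 in ob/ob, 278-fold lower (189 to 426). The nuclear IP had 39.5 and 24.6 CPM in wild type and 0 in both ob/ob libraries, at least 159-fold lower. Cytoplasmic IgG had 14 counts, or 41.4 CPM by library size (exact 95% binomial interval 22.6 to 69.4). That range holds the wild-type and the high-fat diet IP levels.

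**Figure D2:**
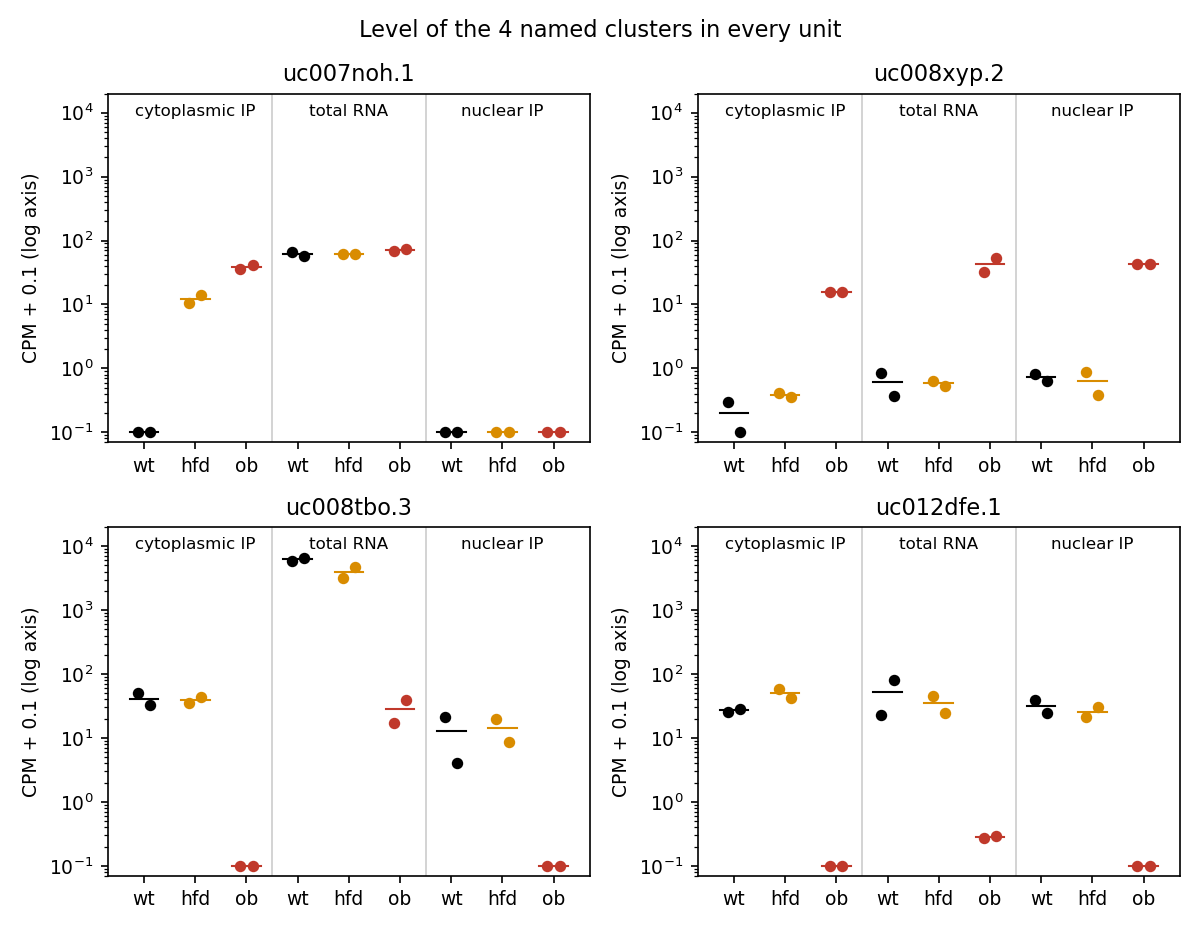
CPM plus 0.1 on a log axis for the 4 named clusters in every unit of wild type (wt, black), high-fat diet (hfd, orange) and ob/ob (ob, red), in the cytoplasmic IP, total RNA and nuclear IP, with a line at the mean of each pair. Points at the bottom of a panel are 0 counts: wild-type cytoplasmic IP for uc007noh.1 and ob/ob IPs for uc008tbo.3 and uc012dfe.1.

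The last 2 clusters carry the numbers 18957 and 18953. Of the 15 cluster numbers from 18948 to 18962, a window of 5 on each side of them chosen after the values were seen, 11 were tested in the IP and 9 were lower in ob/ob, 9 in total RNA too. Their fitted log2 fold changes ran from -11.73 to -1.99 in the IP and from -9.66 to -2.72 in total RNA, and 2 did not pass in the IP. RSEM may divide reads among clusters of like sequence, which was not tested, so these calls may not be independent. Over all clusters, 12.8% of the 329 lower and 11.9% of the 336 higher ones had a cluster of an adjacent number called the same way, against 2.97% and 3.42% of all clusters tested.

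The second question was whether the direction inside the IP was that of the matching total RNA. Of the 665 clusters, 662 were also tested in total RNA, and 605 of them (91.4%) had the same sign there, against 65.7% of the 11829 clusters tested in both. The higher clusters had 303 with the same sign and 32 with the opposite one, and the lower clusters 302 and 25. The median log2 fold change of the higher clusters was 1.19 in the IP and 0.58 in total RNA, and that of the lower clusters was -1.20 in the IP and -0.49 in total RNA. These clusters were picked for their difference in the IP, so a smaller median elsewhere is not by itself a result. Pearson's r of the 2 log2 fold changes, a description across clusters, was 0.686 over the 11829 and 0.880 over the 662.

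Among these 662 clusters, the share with the same sign was larger where the difference in the IP was larger. It was 83.6% of 220 clusters under 1 on the log2 scale and 94.1% of 305 from 1 to 2. It was 97.1% of 70 from 2 to 3, and 98.5% of 67 at 3 or more. Shares by size were not taken over all clusters tested, so these have no background of like size. With scatter in total RNA taken into account, the units of the groups did not overlap there for 250 higher and 259 lower clusters in the same direction. For 4 higher and 9 lower clusters the units were apart in the opposite direction, and for 140 they overlapped, while 55.5% of the 11829 were apart in either direction.

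In total RNA itself 244 of 15487 clusters passed the same test (1.58%), 106 higher (0.684%) and 138 lower (0.891%). Of the 336 clusters higher in the IP, 38 passed as higher in total RNA (0.626% of the 11829 did) and none as lower. Of the 329 lower ones, 61 passed as lower (1.10% of the 11829) and none as higher. The 99 clusters are 14.9% of the calls in the IP and 40.6% of the calls in total RNA. None of the 57 clusters with opposite sign passed in total RNA. Not passing in total RNA does not show that a cluster was unchanged there, since the number of calls was 0 without either ob/ob total RNA unit.

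**Figure D3:**
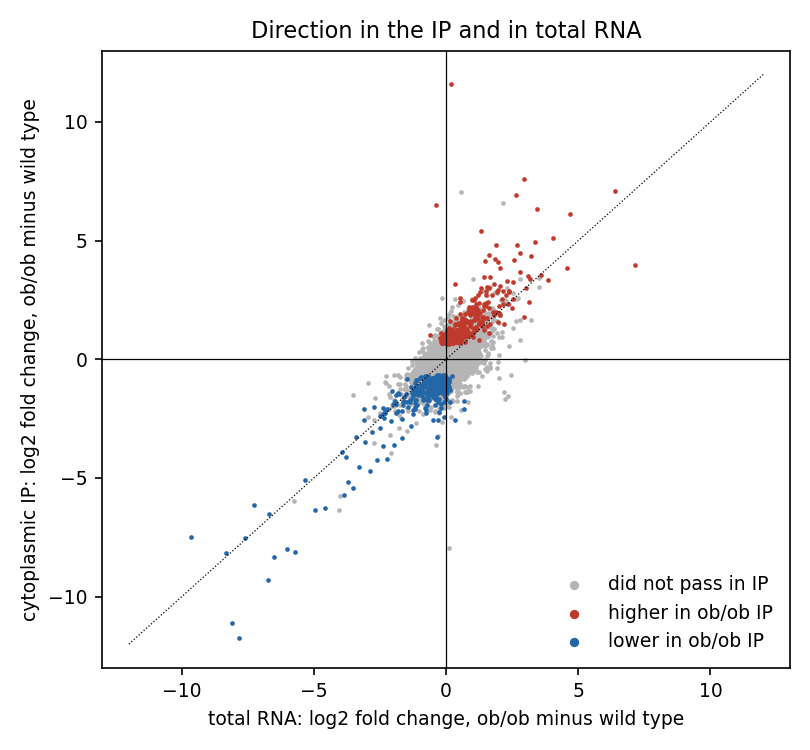
Log2 fold change of ob/ob over wild type in the cytoplasmic IP (y axis) against that in total RNA (x axis) for the 11829 clusters tested in both, with clusters higher in the IP in red and lower in blue; the dotted line marks equal change. The red and blue points lie mostly in the quadrants of equal sign (605 of 662), and the red point near 0 on the x axis and highest on the y axis is uc007noh.1.

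Whether the difference inside the IP was itself different from that in total RNA was tested as a difference of differences over the 18 units. It passed for 1 of 13516 clusters (0.0074%), uc007noh.1, higher in the IP (edgeR adjusted p = 1.03e-05). In ob/ob and wild type, the IP and total RNA of the same replicate number deviated together, and less so in high-fat diet. With a replicate block 32 clusters passed, 12 higher and 20 lower. Without wild-type IP replicate 1 there were 20, 3 higher and 17 lower, and without wild-type IP replicate 2 there were 2. With DESeq2, which gave an adjusted p for 9323 clusters, 400 passed. For uc008xyp.2 the difference was 0.83 ± 1.12 on the log2 scale (edgeR adjusted p = 0.815).

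The calls inside the IP were divided by transcript length. Short clusters were mostly higher and long ones mostly lower in ob/ob. Of 885 clusters of 500 to under 1000 nt, 75 were higher and 15 lower. The class of 1000 to under 2000 nt had 138 higher and 36 lower of 2904, and that of 2000 to under 4000 nt had 92 higher and 104 lower of 4799. From 4000 to under 8000 nt, 22 were higher and 121 lower of 2737. At 8000 nt or more 51 of 402 were lower and none was higher. Of the 174 clusters under 500 nt, 9 were higher and 2 lower. The median length was 1516 nt among the higher clusters, 4180 nt among the lower ones and 2698 nt among all tested.

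From 500 nt upwards the median over all clusters tested fell with length as well. The shortest class stood apart from that order, with a median log2 fold change of 0.16 under 500 nt. It was 0.31 from 500 to under 1000 nt, 0.21 from 1000 to under 2000 nt, -0.03 from 2000 to under 4000 nt, -0.29 from 4000 to under 8000 nt and -0.56 at 8000 nt or more. In single libraries, the median deviation of the longest class from the mean of the 4 libraries was -0.24 and -0.28 in ob/ob and 0.33 and 0.17 in wild type. From 500 to under 1000 nt it was 0.13 and 0.21 in ob/ob and -0.25 and -0.08 in wild type. The groups did not overlap in either class, but 2 libraries against 2 cannot give an exact two-sided permutation p below 0.333. Under 500 nt they did overlap, with -0.0039 and 0.13 in ob/ob and -0.31 and 0.13 in wild type. The high-fat diet libraries had -0.15 and -0.03 in the longest class, between the groups, and 0.21 and 0.20 from 500 to under 1000 nt. Against the same wild-type libraries, the high-fat diet median log2 fold change also fell from 500 nt upwards. By class, from shortest to longest, it was 0.25, 0.35, 0.18, -0.05, -0.25 and -0.41.

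**Figure D4:**
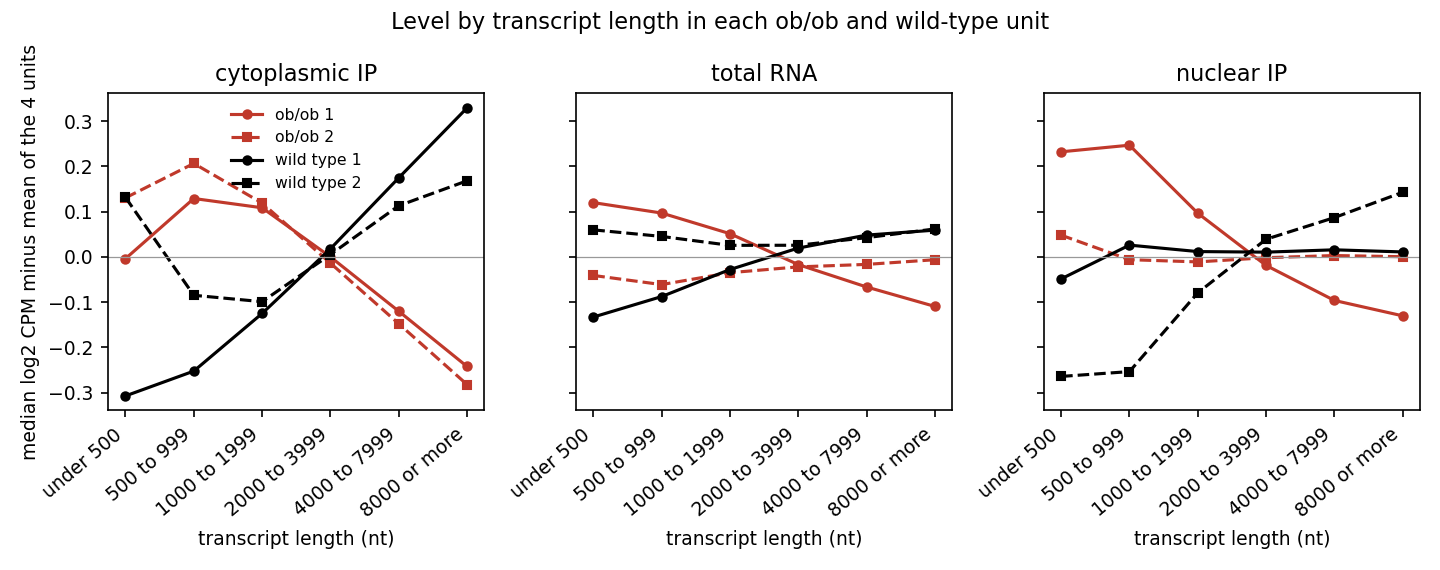
Median log2 CPM of each length class, as the deviation from the mean of the 4 ob/ob and wild-type units of that fraction (y axis), against transcript length class in nt (x axis), for each ob/ob (red) and wild-type (black) unit in the cytoplasmic IP, total RNA and nuclear IP. In the cytoplasmic IP both ob/ob libraries are lower, and both wild-type libraries higher, at 8000 nt or more than from 500 to under 1000 nt.

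In total RNA the longest class had -0.11 and -0.0063 in ob/ob and 0.059 and 0.062 in wild type, and 6 of its 402 clusters were higher and 4 lower there. The class of 500 to under 1000 nt had 0.097 and -0.061 in ob/ob and -0.088 and 0.045 in wild type, which overlap. The nuclear IP had medians of -0.13 and 0.00037 in ob/ob and 0.011 and 0.14 in wild type at 8000 nt or more. Of the 11200 clusters tested in both IPs, 369 were higher and 358 lower in the nuclear IP. Under 500 nt there were 4 and 2 of 150, and from 500 to under 1000 nt 63 and 12 of 791. The class of 1000 to under 2000 nt had 122 and 60 of 2658. That of 2000 to under 4000 nt had 123 and 171 of 4552, and that of 4000 to under 8000 nt 53 and 100 of 2653. At 8000 nt or more there were 4 and 13 of 396, with the lower ones near their share of all 11200. Spearman's rho between length and log2 fold change, a description across clusters that share the same libraries, was -0.391 in the cytoplasmic IP, -0.122 in total RNA and -0.143 in the nuclear IP. For each ob/ob library against each wild-type library of the cytoplasmic IP it was -0.388 to -0.278. It was 0.0757 between the ob/ob libraries and 0.109 between the wild-type libraries. Whether the pattern by length differed between fractions was not tested, and the part of depth, which was higher in both ob/ob IP libraries, was not tested.

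When the trend over length was removed from each library, an alternative chosen after seeing the data, 311 clusters passed (2.61%), 163 higher and 148 lower, and 286 of them were among the 665. At 8000 nt or more 4 were then higher and 3 lower, and from 500 to under 1000 nt 20 were higher and 18 lower. Removing the trend centres each length class near 0, so this balance within a class is set by the procedure and is no result. Of the 307 of these also tested in total RNA, where the trend was not removed, 294 had the same sign (95.8%). The share over all clusters was not taken for this fit. Of the 57 clusters with opposite sign in total RNA, 10 passed this fit. Those 57 had a median length of 1044 nt where higher in the IP and 4972 nt where lower. The 4 named clusters passed with the trend removed as well, the largest adjusted p being 0.000587 (edgeR) for uc008xyp.2. Their choice as the largest changes in these same libraries largely fixes this.

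**Figure D5:**
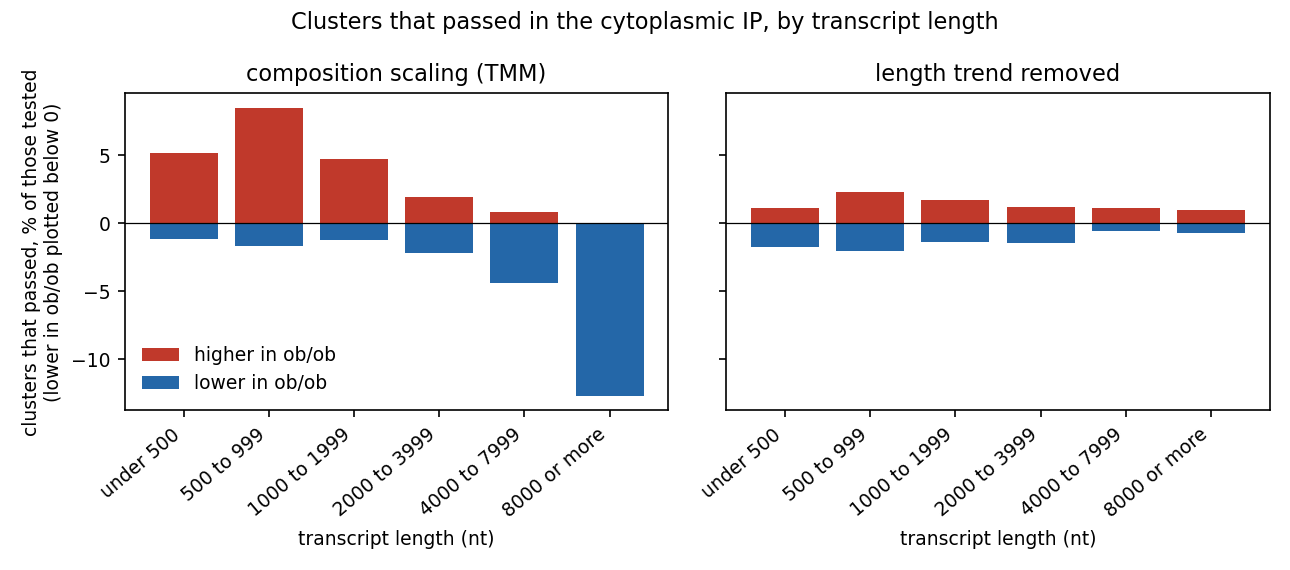
Clusters that passed in the cytoplasmic IP as a percentage of those tested in each length class (x axis, nt), higher in ob/ob above 0 in red and lower below 0 in blue, with composition scaling on the left and with the length trend removed on the right. On the left 51 of 402 clusters of 8000 nt or more are lower and none higher, and on the right 3 are lower and 4 higher, a balance that removing the trend sets by construction.

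The calls were also divided by level and by number of isoforms. By average log2 CPM, 1.28% of clusters under 1 passed, 3.47% from 1 to 3, 6.84% from 3 to 5, 8.87% from 5 to 7 and 6.29% at 7 or more. The contrast by length was seen at each of these levels: clusters under 1000 nt had medians of 0.10 to 0.41, and those of 8000 nt or more -0.61 to -0.20, with 6 clusters in the most abundant long class. Clusters with 1 isoform had 161 higher and 102 lower of 3990, and those with 2 to 4 isoforms 145 higher and 167 lower of 6387. Those with 5 or more isoforms had 30 higher and 60 lower of 1524. Numbers of isoforms and length are not independent, and the 2 were not separated.

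The nuclear IP of the same mouse groups gave 735 of 11531 clusters (6.37%). Of the 336 clusters higher in the cytoplasmic IP, 318 were tested in the nuclear IP, 314 had the same sign and 165 passed as higher, against 3.27% of all clusters. Of the 329 lower ones, 327 were tested, 306 had the same sign and 134 passed as lower, against 3.10%. Over all 11200 clusters tested in both IPs 70.0% had the same sign. None of the 645 passed in the opposite direction. The 299 clusters are 45.0% of the cytoplasmic and 40.7% of the nuclear calls. A difference between the compartments passed for 0 of 13516 clusters with edgeR, where 1418 had an unadjusted p under 0.05, and for 134 of the 9323 with an adjusted p from DESeq2. It passed for 14 clusters without wild-type cytoplasmic IP replicate 1, for 3 without ob/ob nuclear IP replicate 1 and for 1 without wild-type cytoplasmic IP replicate 2.

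The high-fat diet and ob/ob comparisons share the wild-type IP libraries, so their values are only set side by side. In the cytoplasmic IP of high-fat diet against wild type 7 of 11901 clusters passed with edgeR (0.0588%), 5 higher (0.042%) and 2 lower (0.0168%), and 16.3% had an unadjusted p under 0.05. The 336 clusters higher in ob/ob had a median log2 fold change of 1.19 in the ob/ob comparison, where it chose them, and 0.59 in the high-fat diet one. The 329 lower ones had -1.20 and -0.52.

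The library titled as cytoplasmic IgG, 1 library from mixed mice, was set beside the IP libraries. Of the 336 higher clusters, 297 (88.4%) lay above IgG in both ob/ob IP libraries and 177 (52.7%) in both wild-type ones. Of the 329 lower clusters, 27 (8.21%) lay above it in both ob/ob libraries and 141 (42.9%) in both wild-type ones. Among the 11236 clusters that did not pass, the shares were 51.2% and 50.2%. The clusters were picked because these IP libraries differed, so the shares describe them and support nothing further.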

How the data were processed

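The authors deposited 1 RSEM 1.2.8 table per library with an expected count for each of 59121 transcripts in 31469 clusters. TopHat2 2.0.10, Bowtie2 2.1.0, SAMtools, bcl2fastq and build mm10 are also named, with no order, per the submitters' processing notes. Strandedness and annotation are not given in the sources used here, so antisense, overlapping and near-identical genes are uncertain. The deposited TPM, FPKM and isoform percent were not used.

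Per cluster, expected counts were added up and then rounded. The 2 total RNA libraries of a replicate number were summed to 1 unit, an assumption, giving 18 units. The length is that of the most counted transcript. The fit used the 6 cytoplasmic IP libraries, a mean per mouse group, filterByExpr, TMM and edgeR 4.0.16 (quasi-likelihood F-test, R 4.3.3). Total RNA and nuclear IP were fitted likewise, and differences of differences on all 18 units. DESeq2 1.42.0 was an alternative. Standard errors were derived from the F statistic (absolute log2 fold change over the root of F). Steps were tested on simulated counts. Where a group had 0 counts the floor was 3 counts over the group, on TMM-scaled library sizes. Setting clusters with 0 in a group to their bound left the medians of the higher and lower clusters, and of the length classes, the same.

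Alternatives were other scalings, filters and fits, a replicate block, each replicate left out, and a lowess trend over log2 length (span 0.3) removed per library. Named clusters passed the threshold with an average log2 CPM of at least 1 and no overlap between groups, the 2 of largest log2 fold change per direction. The planned lists and markers need symbols and were not analysed. The comparison, lists and rules were chosen with earlier results of these data known. Across clusters, the replicate 1 minus 2 difference correlated between cytoplasmic IP and total RNA at 0.378 (ob/ob), 0.444 (wild type) and 0.191 (high-fat diet). Between mouse groups it was 0.174 for wild-type and high-fat diet cytoplasmic IP, and -0.255 for ob/ob and wild-type total RNA. The numbers may therefore pair these fractions in ob/ob and wild type, though the labels do not say so. For high-fat diet, pairing is not shown.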

Additional observations from a re-analysis of the deposited data

Results flagged for a closer look

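Cluster uc007noh.1 was marked because its ob/ob against wild-type difference in the cytoplasmic IP differed from that in total RNA by the test of the difference itself (edgeR adjusted p = 1.03e-05). It had 35.3 and 41.0 CPM in the ob/ob IP and 0 in the wild-type IP, with 57.1 to 72.5 CPM in total RNA of both groups.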

How the results depend on the processing

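For ob/ob against wild type in the cytoplasmic IP, 665 clusters passed. The count was 1854 without a filter on low counts, 221 with only the 4 ob/ob and wild-type libraries, 1831 with all 18 units, 1533 at an adjusted p of 0.1, 311 with the length trend removed, and 60 to 1200 with an ob/ob or wild-type replicate left out. It was 216 and 218 without high-fat diet replicate 1 or 2, and within 1.5 times 665 with the other alternatives. In total RNA, where 244 passed, there were 91 by library size only, 2104 with DESeq2, 5961 with each library as its own replicate, and 0 to 3200 with a replicate left out. In the nuclear IP (735) the range was 62 to 825. For the difference between cytoplasmic IP and total RNA, the count of 1 of 13516 became 400 of 9323 with DESeq2 and 1 to 20 with a replicate left out, and for that between the IPs 0 became 134 and 0 to 14. With a replicate block, 979 clusters passed in the cytoplasmic IP, 63 in total RNA and 790 in the nuclear IP, and 32 and 2 for these differences. Same-numbered ob/ob and wild-type libraries of the cytoplasmic IP had r of -0.0045, and whether they share more than a number was not tested. Same-numbered cytoplasmic and nuclear IPs had r of 0.416 (ob/ob), 0.518 (wild type) and -0.113 (high-fat diet). The share with the same sign in total RNA, 91.4%, was 97.5% where groups did not overlap in either fraction. It was 81.8% for IP clusters with an unadjusted p under 0.05 and 94.4% by library size only. With the length trend removed from the IP but not from total RNA it was 95.8%. The share over all clusters tested was not taken under any of these 4 settings, so the changes from 91.4% have no background. By library size only the median was 0.45 under 1000 nt in place of 0.30 and -0.42 at 8000 nt or more in place of -0.56, and with a replicate left out 0.23 to 0.40 and -0.61 to -0.45. The named clusters passed, with the same sign, in each alternative run. They were picked as the largest changes without overlap in these same libraries, which largely fixes this, so it is no sign of stability. Depth limits clusters of low abundance in IgG, and with 2 libraries a group 1 library can decide a call.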
